A study of Mus musculus with 4 samples.

Results

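The 10 genes described here are Nr3c1, which encodes the glucocorticoid receptor, and 9 genes that glucocorticoids are known to induce: Sgk1, Fkbp5, Tsc22d3, Zbtb16, Nfkbia, Pdk4, Cdkn1a, Mt1 and Mt2. They were chosen by symbol, and all 10 were found among the 32285 genes counted. Their raw UMI counts (unique molecular identifiers, each standing for 1 captured transcript) were summed per cell class and library in nuclei of the mouse spinal dorsal horn. The libraries came from Gpr37l1-/- (KO) mice 1 day after spared nerve injury (SNI), wild-type (WT) mice 1 day after SNI, uninjured (naive) KO mice and naive WT mice, with 1 library for each of the 4 groups. Gpr37l1 encodes a G protein-coupled receptor of astrocytes, and SNI is a pain model in which branches of the sciatic nerve are cut while another is spared. How many animals a library pooled, and of what sex and age, is not given in the sources used here.

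Groups follow the titles and library names. The treatment tag of the labels disagrees with them, calling the KO naive library injured and the WT SNI library naive. If the tags held, both KO libraries would be injured and both WT libraries naive: genotype and injury could not be told apart in KO compared with WT, and the comparisons within a genotype would hold no injury contrast. The molecule label also differs, naming total RNA for the KO SNI library and polyA RNA for the other libraries. With 1 library per group there is no spread between animals and no test. Intervals (95%, exact Poisson for levels and exact conditional binomial for ratios) cover counting error only, and a difference between 2 libraries may belong to those libraries.

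Glucocorticoids are adrenal steroid hormones that cross the cell membrane and bind the receptor in the cytoplasm, where Hsp90 and its co-chaperones hold it ready. The bound receptor enters the nucleus and activates genes at palindromic glucocorticoid response elements. Fkbp5 and Nfkbia products then restrain the receptor and NF-kB signalling, and Sgk1, Zbtb16, Tsc22d3 and the metallothioneins are among the genes read as signs of hormone action in brain and spinal cord. Several of them also answer to other signals, Sgk1 to serum and cell volume, Nfkbia to NF-kB, the metallothioneins to zinc and Cdkn1a to p53.

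RefSeq promoter windows, the 250 bases before each annotated start on GRCm38.p6, were available for 8 of the 10 genes, with 16 entries. The windows printed here are those of the genes whose levels the results turn on and in which a response element was found. Capitals mark the match, and both strands were searched. The full palindrome, AGAACA and TGTTCT with any 3 bases between them, was found in 1 of 6 Sgk1 windows (chr10:21993640-21993889, plus strand), 189 bases before the start, and in 3 of 32851 promoters (0.00913%). The shorter form, GNACA and TGTNC with any 3 bases between them, lies inside that Sgk1 match. It was also found in the Mt1 window (chr8:94178839-94179088, plus strand), 94 bases before the start, and in 0.387% of promoters. The metal response core TGCACNC or TGCGCNC was found 3 times in the Mt2 window (chr8:94172368-94172617, plus strand), 223, 128 and 50 bases before the start, and in 21.4% of promoters. That core also lies 23 bases before the Mt1 start, apart from the capitals there, and 226 bases before the Nfkbia start. The NF-kB letters, GGGA and TTTCC with any base between them, were found on the opposite strand of the Nfkbia window (chr12:55492648-55492897, minus strand), 29 bases before the start, and in 0.356% of promoters. A p53 core, CATG and CATG with any 6 bases between them, was added after the sequences had been seen and lies 48 bases before the start in 1 of 2 Cdkn1a windows and in 0.49% of promoters. None of these letters was found in the Fkbp5, Tsc22d3 and Pdk4 windows. A match is a description of letters in the window and does not show that a factor binds there.
Sgk1: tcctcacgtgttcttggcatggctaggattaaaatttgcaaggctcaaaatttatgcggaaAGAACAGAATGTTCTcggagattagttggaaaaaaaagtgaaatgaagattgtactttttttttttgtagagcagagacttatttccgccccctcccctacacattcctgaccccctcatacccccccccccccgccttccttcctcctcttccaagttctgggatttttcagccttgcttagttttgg
Mt1: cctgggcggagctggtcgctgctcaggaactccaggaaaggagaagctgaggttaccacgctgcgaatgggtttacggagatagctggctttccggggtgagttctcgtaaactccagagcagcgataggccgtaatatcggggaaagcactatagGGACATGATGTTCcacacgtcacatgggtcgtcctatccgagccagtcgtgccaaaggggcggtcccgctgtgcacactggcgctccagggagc
Mt2: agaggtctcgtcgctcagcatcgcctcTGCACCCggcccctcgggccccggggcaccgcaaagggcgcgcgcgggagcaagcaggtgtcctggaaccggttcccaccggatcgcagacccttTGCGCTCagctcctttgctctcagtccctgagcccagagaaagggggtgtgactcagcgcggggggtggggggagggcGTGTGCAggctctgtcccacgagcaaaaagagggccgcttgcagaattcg
Nfkbia: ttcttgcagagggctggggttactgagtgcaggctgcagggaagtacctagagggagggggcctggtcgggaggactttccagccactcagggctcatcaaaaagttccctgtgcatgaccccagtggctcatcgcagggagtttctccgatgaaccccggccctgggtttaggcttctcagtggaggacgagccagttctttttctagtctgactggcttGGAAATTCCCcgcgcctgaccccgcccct

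The 4 libraries held 28019 (KO SNI), 27233 (WT SNI), 37552 (KO naive) and 19942 (WT naive) barcodes, with median UMI counts between 1284 and 1509. Gpr37l1 itself had 11 UMIs in the KO SNI library, against 1103 in WT SNI, and 22 UMIs in KO naive, against 424 in WT naive. Both KO libraries thus lay far below both WT libraries. Pairs of libraries shared 162 to 293 barcodes, at most 1.05% of the smaller library. Clusters were named from marker genes as astrocyte-like, oligodendrocyte-like, committed oligodendrocyte precursor-like, oligodendrocyte precursor-like, microglia-like, endothelial-like, ependymal-like, excitatory neuron-like and inhibitory neuron-like. Endothelial-like and ependymal-like nuclei numbered 40 and 43 in the WT naive library, so levels are given for 9 classes and ratios for the 7 with at least 50 nuclei in every library. Counts are divided by the class total without mitochondrial genes and given as CPM, the usual scaling of counts to a common total. In such sums, fewer nuclei with the transcript and less of it per nucleus cannot be told apart. The KO naive library stood apart. Its astrocyte-like nuclei held 59340 CPM of Malat1, a nuclear noncoding RNA, against 128500 CPM in WT naive. General neuron markers summed to 6246 CPM in KO naive astrocyte-like nuclei, against 2709 CPM in WT naive, and all 7 of those markers were detected in that class. One unnamed cluster, led by Actb and Insig1, held 190 KO SNI, 4874 WT SNI, 4873 KO naive and 73 WT naive nuclei, and it enters no class. Unnamed nuclei, this cluster included, numbered 7988 in KO SNI, 10924 in WT SNI, 14517 in KO naive and 4586 in WT naive.

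Across the 7 classes, the 10 genes made 70 gene-class pairs, and pairs with at least 50 UMIs over 2 libraries were compared. A pair was called higher or lower at 1.5-fold, a log2 ratio of 0.58. After SNI, KO compared with WT, 0 of 49 pairs were higher and 13 were lower, against 3.83% and 4.37% of all gene-class pairs. The median log2 ratio of the 49 pairs was -0.21, and 33 of them were below 0. Over all genes, the share below 0 ran from 44.21% in committed oligodendrocyte precursor-like to 55.96% in microglia-like nuclei. In naive mice, KO compared with WT, 6 of 44 pairs were higher and 7 lower, against 12% and 12.3% of all gene-class pairs, with a median of -0.03. The 13.64% and 15.91% of member pairs called there were close to the shares over all genes. SNI compared with naive in KO gave 7 higher and 3 lower of 49 pairs, against 9.26% and 5.91% of all gene-class pairs, with a median of 0.10. In WT, SNI compared with naive gave 15 higher and 0 lower of 45 pairs, against 6.25% and 3.32%, with a median of 0.36. Genes listed for RNA quality and dissociation had medians above 0 in that WT comparison too, lowest in astrocyte-like nuclei at 0.24 and highest in oligodendrocyte precursor-like nuclei at 0.56, and their part in the count of 15 was not tested. The 4 comparisons share libraries: a high WT SNI value lowers the first ratio and raises the last one. Pairs with at least 100 UMIs over the 4 libraries numbered 48. The WT SNI library was the highest in 25 of them (52.08%), against 24.28% of 59448 pairs over all genes. It was the lowest in 3 (6.25%), against 18.38% over all genes.

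**Figure D1:**
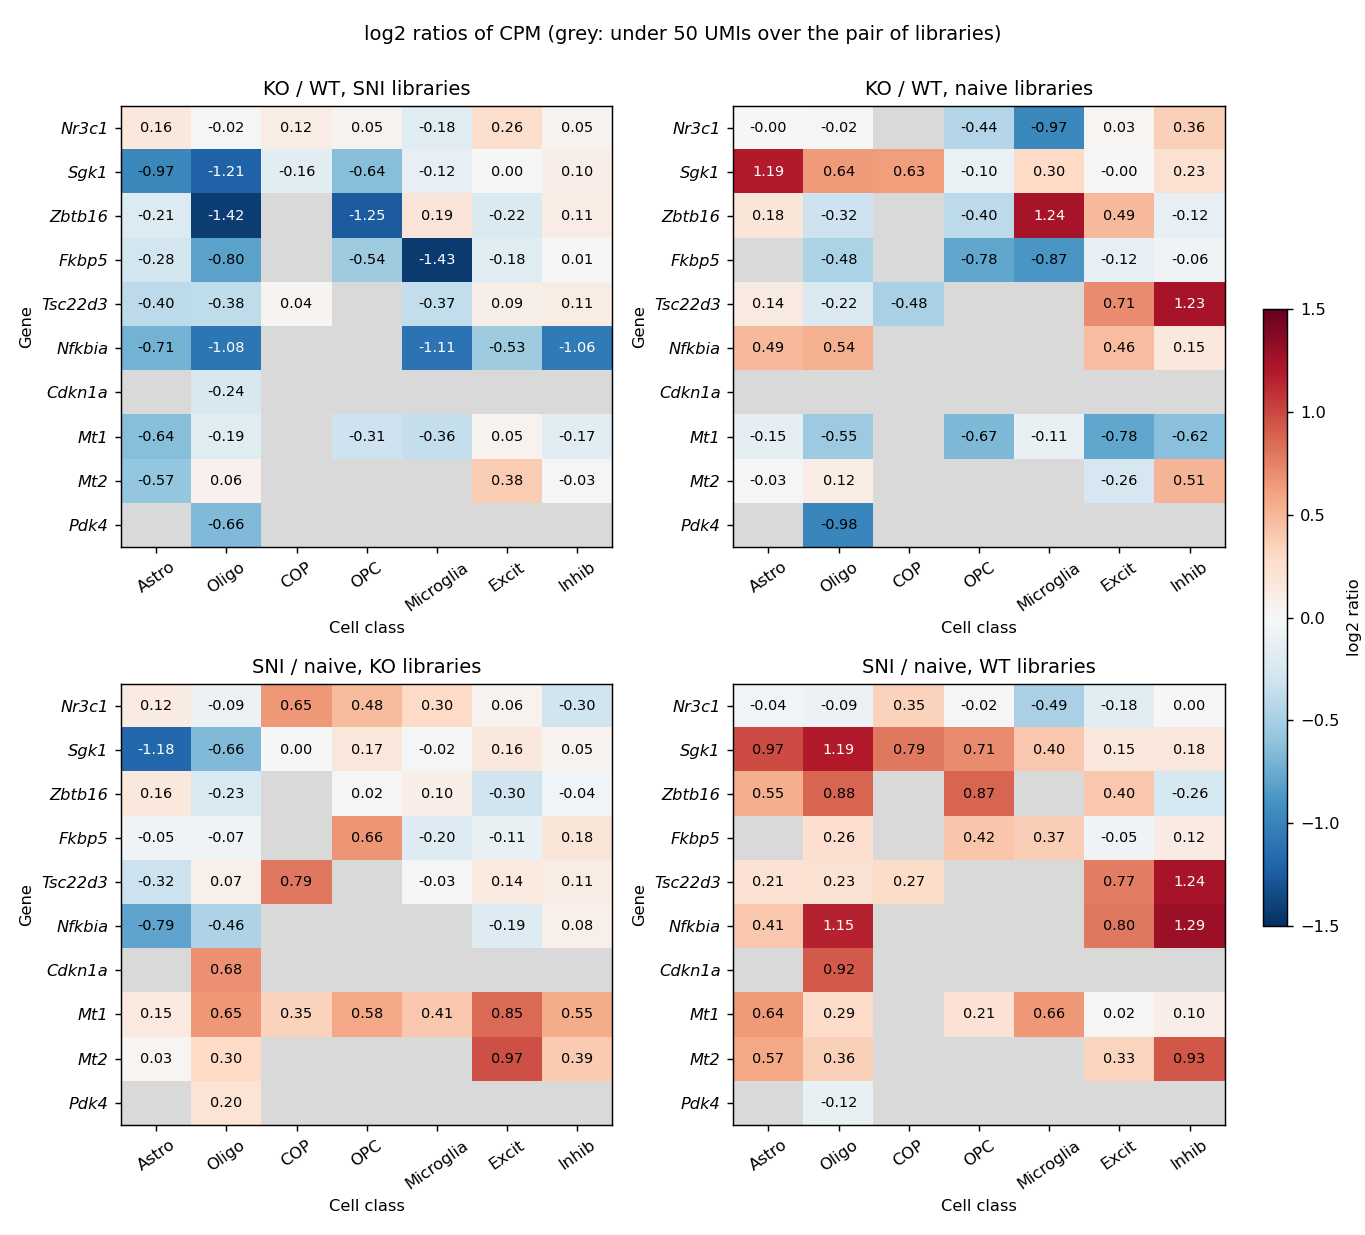
Heatmaps of the log2 ratio of CPM for the 10 genes (rows) in 7 cell classes (columns) in the 4 comparisons; Astro is astrocyte-like, Oligo oligodendrocyte-like, COP committed oligodendrocyte precursor-like, OPC oligodendrocyte precursor-like, Excit and Inhib the neuron classes, and grey cells have under 50 UMIs over the pair. Sgk1 and Zbtb16 in oligodendrocyte-like nuclei stand at -1.21 and -1.42 after SNI, KO to WT, and at 1.19 and 0.88 in WT, SNI to naive.

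The receptor gene Nr3c1 (chr18:39410545-39519421, minus strand, GRCm38) had its highest median level over the libraries in endothelial-like nuclei, with 394 CPM in KO SNI, 184 in WT SNI, 243 in KO naive and 178 in WT naive. The KO SNI library was the highest there. Endothelial markers in those nuclei summed to 10200 CPM in KO SNI, 6371 in WT SNI, 7074 in KO naive and 10380 in WT naive. General neuron markers summed to 5870 CPM in KO SNI, 10130 in WT SNI, 8410 in KO naive and 7543 in WT naive. The part of these sums in the Nr3c1 levels was not tested. Inhibitory neuron-like nuclei were the lowest, with 25.7 CPM in KO SNI, 24.8 in WT SNI, 31.7 in KO naive and 24.8 in WT naive. Excitatory neuron-like nuclei held 58.7 to 70.2 CPM over the libraries, so the 2 neuron classes did not overlap. In oligodendrocyte-like nuclei Nr3c1 had 123 CPM in KO SNI, 125 in WT SNI, 131 in KO naive and 133 in WT naive. No log2 ratio of Nr3c1 there passed 0.09 in either direction, on 2303 UMIs over the libraries. Astrocyte-like nuclei held 160.1 CPM in KO SNI, 143 in WT SNI, 147 in KO naive and 147 in WT naive, and no log2 ratio there passed 0.16. In these 2 glial classes the receptor transcript was at nearly the same level in all 4 libraries. In microglia-like nuclei it had 129 CPM in KO SNI, 147 in WT SNI, 105 in KO naive and 206 in WT naive. The naive log2 ratio, KO to WT, was -0.97 (-1.39 to -0.55) in microglia-like nuclei and kept its direction in every recomputation. Microglial markers, all 8 of them detected, summed to 2070 CPM in KO naive microglia-like nuclei, against 4934 CPM in WT naive, and general neuron markers to 15260 CPM, against 9006 CPM. Their part in the Nr3c1 value was not tested.

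**Figure D2:**
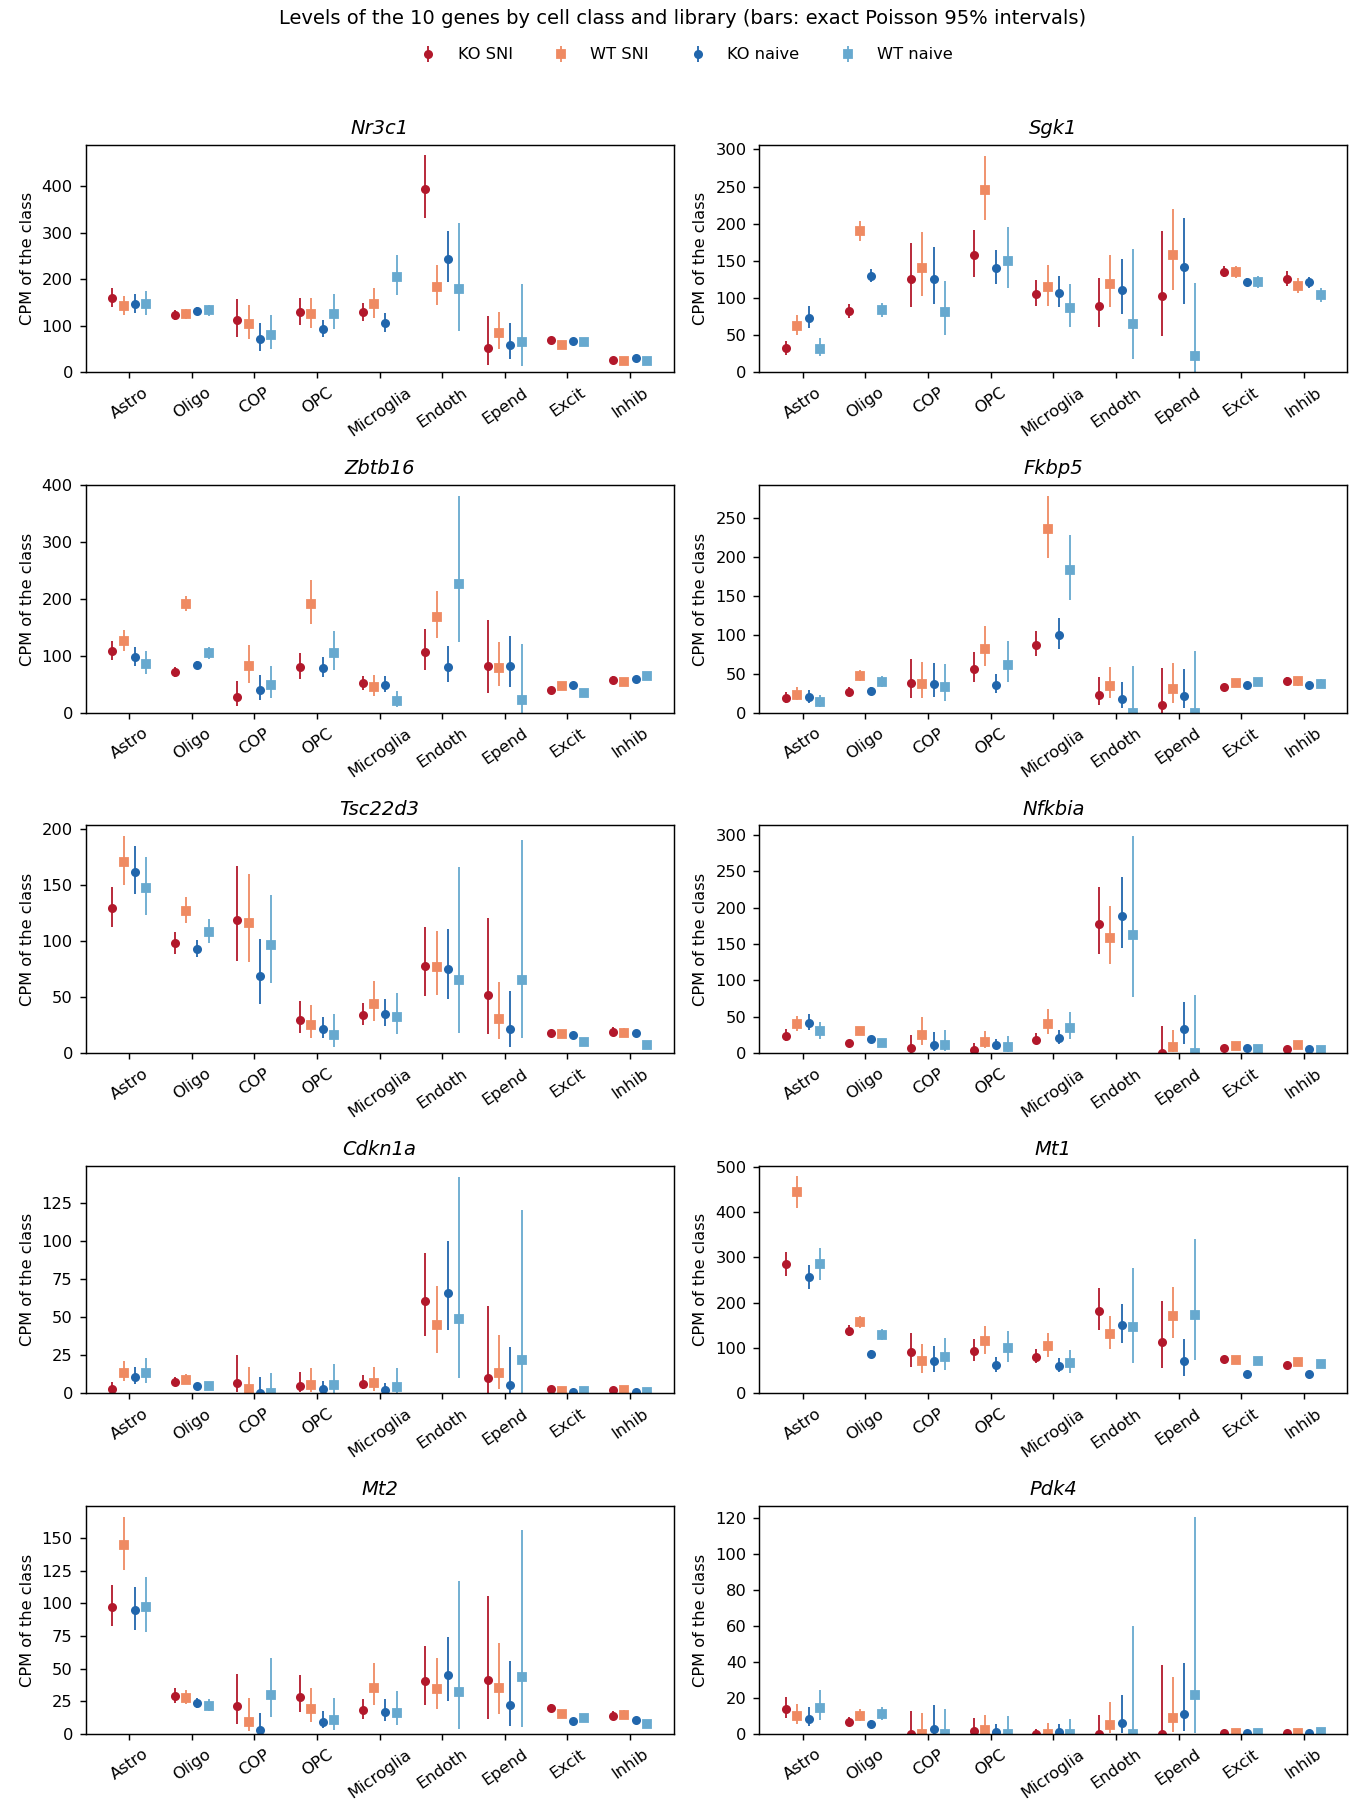
CPM of each gene by cell class (Endoth is endothelial-like, Epend ependymal-like, the other short names as above) in the 4 libraries, with exact 95% Poisson intervals that cover counting error only. Mt1, Mt2 and Tsc22d3 peak in astrocyte-like nuclei, Nfkbia and Cdkn1a in endothelial-like nuclei and Fkbp5 in microglia-like nuclei. Nr3c1 peaks in endothelial-like nuclei by its median over the libraries. In WT naive alone, Nr3c1 is higher in microglia-like nuclei, at 206 CPM against 178 CPM in endothelial-like nuclei. The WT SNI points stand above the others for Sgk1 and Zbtb16 in the oligodendrocyte lineage.

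Sgk1 (chr10:21882184-21999903, plus strand) encodes a kinase that regulates ion channels and transporters. In oligodendrocyte-like nuclei it had 82.0 CPM in KO SNI, 189.9 in WT SNI, 129.7 in KO naive and 83.5 in WT naive, from 319, 729, 837 and 311 UMIs. The WT SNI library was the highest, and KO SNI lay beside WT naive. The log2 ratio of KO to WT after SNI was -1.21 (-1.41 to -1.02), and in naive mice it was 0.64 (0.45 to 0.83). The ratio of SNI to naive ran in opposite directions in the 2 genotypes, at -0.66 (-0.85 to -0.47) in KO and 1.19 (0.99 to 1.38) in WT. The higher libraries, WT SNI and KO naive, are those whose treatment tags disagree with their titles. They also held most nuclei of the unnamed cluster led by Actb and Insig1. With 1 library per group, injury and library cannot be told apart here. Astrocyte-like nuclei, the class with the lowest median Sgk1, held 32.3 CPM in KO SNI, 63.0 in WT SNI, 73.1 in KO naive and 32.1 in WT naive, from 52, 89, 103 and 29 UMIs. There too the order of the genotypes turned between injured and naive mice, with SNI to naive at -1.18 (-1.69 to -0.69) in KO and 0.97 (0.35 to 1.63) in WT.

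The neuron classes did not share this pattern. Excitatory neuron-like nuclei had 135.5 CPM of Sgk1 in KO SNI, 135.1 in WT SNI, 121 in KO naive and 121 in WT naive, and inhibitory neuron-like nuclei 126 in KO SNI, 117 in WT SNI, 121 in KO naive and 104 in WT naive. No neuronal log2 ratio of Sgk1 passed 0.23 in either direction. Oligodendrocyte precursor-like nuclei were the highest class, with 158 CPM in KO SNI, 245 in WT SNI, 140 in KO naive and 150 in WT naive. In those precursors only the WT SNI library stood apart, at -0.64 (-1.03 to -0.25) for KO to WT and 0.71 (0.24 to 1.19) for SNI to naive in WT. Microglia-like nuclei ranged from 86.8 to 115 CPM, and no Sgk1 ratio there was called. General neuron markers were higher in KO naive glia, with 6728 CPM in KO naive oligodendrocyte-like nuclei against 2390 CPM in WT naive, and microglial markers were higher in KO SNI glia, with 710.4 CPM in KO SNI oligodendrocyte-like nuclei against 406.5 CPM in WT SNI. Of 8 measured genes for RNA quality and dissociation, 3 were higher (Fos, Egr1 and Junb) and 3 lower in KO naive oligodendrocyte-like nuclei than in WT naive. The shares over all genes were 17.4% and 9.59%. Fos had 8.83 CPM in KO naive and 2.42 in WT naive, and Malat1, among the lower ones, 57830 and 123200. In astrocyte-like nuclei 0 of 4 were higher and 2 lower, against 17.6% and 9.46%. The part of any of these in the Sgk1 ratios was not tested.

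Each called ratio was recomputed with marked doublets kept, with coarser clustering (Leiden resolution 0.5), with each library clustered on its own, with nuclei of at least 1000 UMIs and 500 genes, with nuclei thinned to 1000 UMIs, and with median-of-ratios size factors in place of class totals. The oligodendrocyte-like Sgk1 ratio after SNI, KO to WT, lay between -1.49 and -1.17 over these. The naive ratio was 0.18 with each library clustered on its own, which ends the call, 0.58 with size factors, just under 1.5-fold, and 1.38 and 1.44 in the deeper and the thinned nuclei. SNI to naive in WT was 0.70 with each library clustered on its own, and 1.78 and 1.91 in the deeper and the thinned nuclei. The KO injury ratio was -1.01 and -1.02 in those nuclei. In astrocyte-like nuclei coarser clustering gave -0.10 for KO to WT after SNI and -0.25 for SNI to naive in KO, which ends both calls. That class then held 2314 KO SNI, 1426 WT SNI, 1681 KO naive and 1002 WT naive nuclei, in place of 1887, 1304, 1223 and 952. The naive astrocyte-like ratio was 2.02 and 2.28 in the deeper and the thinned nuclei, against 1.19 in all of them, and the WT injury ratio 1.56 and 1.94, against 0.97. In the precursors KO to WT after SNI was -0.57 in the deeper nuclei, and SNI to naive in WT was 0.58 with marked doublets kept, both just under 1.5-fold.

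**Figure D3:**
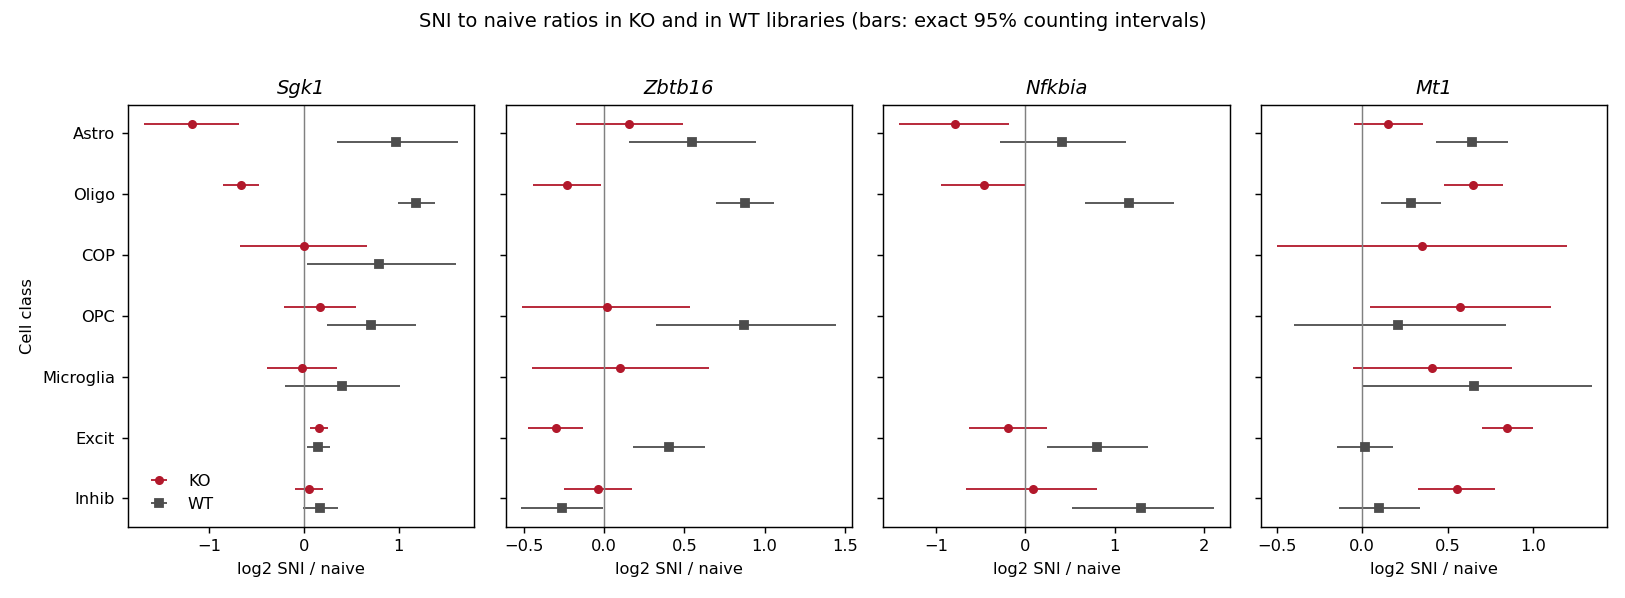
Log2 ratio of SNI to naive in KO and in WT for Sgk1, Zbtb16, Nfkbia and Mt1 over the 7 classes, with exact 95% intervals for counting error; ratios under 50 UMIs over the pair are not drawn. For Sgk1 the KO and WT points lie on opposite sides of 0 in astrocyte-like and oligodendrocyte-like nuclei, at -1.18 and 0.97 and at -0.66 and 1.19, and close together in the neuron classes.

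Zbtb16 (chr9:48654297-48836222, minus strand) encodes a zinc finger transcriptional repressor. Its largest called difference lay in oligodendrocyte-like nuclei, which held 71.5 CPM in KO SNI, 192 in WT SNI, 83.8 in KO naive and 104 in WT naive, from 278, 736, 541 and 389 UMIs. The log2 ratio of KO to WT was -1.42 (-1.63 to -1.22) after SNI and -0.32 (-0.51 to -0.12) in naive mice. Only the injured ratio passed 1.5-fold over the whole class, and it lay between -1.52 and -1.38 over the recomputations. SNI to naive was -0.23 (-0.44 to -0.02) in KO and 0.88 (0.70 to 1.06) in WT. With each library clustered on its own the WT value was 0.58, just under 1.5-fold. In oligodendrocyte precursor-like nuclei both WT libraries were again above both KO libraries, with 80.4 CPM in KO SNI, 192 in WT SNI, 79.4 in KO naive and 105 in WT naive. KO to WT after SNI was -1.25 (-1.77 to -0.75) in the precursors, and -0.65 in those with at least 1000 UMIs and 500 genes. Committed oligodendrocyte precursor-like nuclei held 28.0 CPM in KO SNI, 81.4 in WT SNI, 40.1 in KO naive and 48.0 in WT naive, from 8 to 26 UMIs, too few for a ratio under the rule used.

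In astrocyte-like nuclei and both neuron classes no Zbtb16 ratio was called. Astrocyte-like nuclei held 109 CPM in KO SNI, 126 in WT SNI, 98.0 in KO naive and 86.3 in WT naive. Excitatory neuron-like nuclei held 40.2 CPM in KO SNI, 46.7 in WT SNI, 49.5 in KO naive and 35.3 in WT naive. SNI to naive was -0.30 (-0.47 to -0.13) in KO and 0.40 (0.18 to 0.63) in WT there, opposite in sign and under 1.5-fold in both. Inhibitory neuron-like nuclei ranged from 53.7 to 64.4 CPM, with WT naive the highest. In microglia-like nuclei the naive ratio of 1.24 (0.20 to 2.45) rested on 9 UMIs in WT naive and was 0.25 to 1.37 over the recomputations.

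Oligodendrocyte-like nuclei came from 3 clusters that the libraries filled unequally. Cluster 2 held 2847 KO SNI, 2714 WT SNI, 236 KO naive and 3094 WT naive nuclei. Cluster 3 held 180 KO SNI, 56 WT SNI, 5210 KO naive and 28 WT naive nuclei, so most KO naive oligodendrocytes stood in a cluster with few nuclei of the other libraries. Cluster 6, led by Art3, Carns1 and Slc5a11 among others, was shared, with 1615 KO SNI, 1197 WT SNI, 807 KO naive and 1309 WT naive nuclei. Ratios within clusters 6 and 2 were added after the data had been seen. In cluster 6 Sgk1 had 61.0 CPM in KO SNI, 118 in WT SNI, 74.7 in KO naive and 42.4 in WT naive. Its log2 ratios were -0.95 (-1.31 to -0.59) for KO to WT after SNI, 0.82 (0.34 to 1.30) for KO to WT in naive mice, -0.29 (-0.71 to 0.13) for SNI to naive in KO and 1.47 (1.05 to 1.91) for SNI to naive in WT. The KO injury ratio of Sgk1 was thus not called within cluster 6. In cluster 2 that ratio was -0.82 (-1.31 to -0.29), past 1.5-fold, on 194 KO SNI and 40 KO naive UMIs. Zbtb16 in cluster 6 had 54.0 CPM in KO SNI, 126 in WT SNI, 69.8 in KO naive and 72.0 in WT naive. KO to WT after SNI was -1.22 (-1.59 to -0.85) for Zbtb16 there, and -1.45 (-1.71 to -1.20) in cluster 2. KO to WT in naive mice was -0.04 (-0.47 to 0.38) for Zbtb16 in cluster 6 and -1.17 (-2.10 to -0.37) in cluster 2. That last ratio rested on 13 KO naive and 279 WT naive UMIs. SNI to naive in KO was -0.37 (-0.81 to 0.07) for Zbtb16 in cluster 6 and 0.61 (-0.20 to 1.55) in cluster 2. Nr3c1 in cluster 6 ranged from 98.1 CPM in KO SNI to 126 CPM in KO naive, and none of its ratios there was called.

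**Figure D4:**
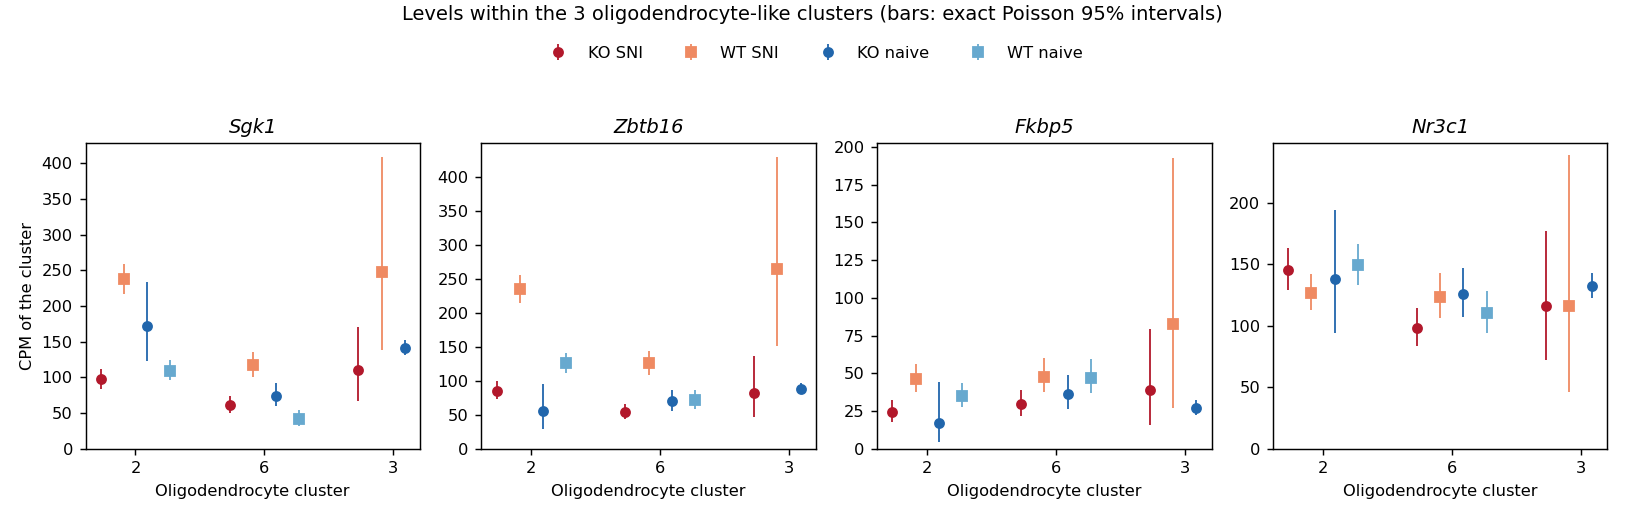
CPM of Sgk1, Zbtb16, Fkbp5 and Nr3c1 in oligodendrocyte-like clusters 2, 6 and 3, by library, with exact 95% Poisson intervals; a library with under 50 nuclei in a cluster is not drawn. WT SNI is the highest for Sgk1 and Zbtb16 in clusters 2 and 6, at 237 and 118 CPM for Sgk1 and 235 and 126 CPM for Zbtb16, and no such order is seen for Nr3c1.

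Fkbp5 (chr17:28399094-28517527, minus strand) encodes a co-chaperone of Hsp90 that lowers the receptor's affinity for hormone. Its annotated span overlaps a sense and an antisense gene, AC154912.5 and AC154912.1, and whether counting used strand is not given in the sources used here. Microglia-like nuclei had the highest level, with 87.3 CPM in KO SNI, 235.7 in WT SNI, 100.1 in KO naive and 182.8 in WT naive, from 121, 140, 101 and 80 UMIs. Both KO libraries lay below both WT libraries there. The log2 ratio of KO to WT was -1.43 (-1.80 to -1.07) after SNI and -0.87 (-1.31 to -0.43) in naive mice. It lay between -1.45 and -1.15 after SNI and between -1.26 and -0.74 in naive mice over the recomputations. No injury ratio was called in either genotype, at -0.20 (-0.59 to 0.20) in KO and 0.37 (-0.04 to 0.78) in WT. Microglial markers summed to 3147 CPM in KO SNI microglia-like nuclei and 3667 CPM in WT SNI, and to 2070 CPM in KO naive and 4934 CPM in WT naive. General neuron markers summed to 13720 CPM in KO SNI and 11810 CPM in WT SNI, and to 15260 CPM in KO naive and 9006 CPM in WT naive. The part of either in the Fkbp5 ratios was not tested.

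In oligodendrocyte-like nuclei Fkbp5 had 27.3 CPM in KO SNI, 47.4 in WT SNI, 28.5 in KO naive and 39.7 in WT naive. Both KO libraries were again the lower ones, with KO to WT at -0.80 (-1.16 to -0.45) after SNI and -0.48 (-0.80 to -0.16) in naive mice. The injured ratio was -0.47 in nuclei with at least 1000 UMIs and 500 genes and -0.37 in thinned nuclei, which ends the call. Oligodendrocyte precursor-like nuclei held 56.7 CPM in KO SNI, 82.4 in WT SNI, 35.9 in KO naive and 61.7 in WT naive. The naive ratio of -0.78 (-1.56 to 0.03) in the precursors was called, and it was -0.44 in thinned nuclei. Excitatory neuron-like nuclei held 33.2 to 39.1 CPM and inhibitory neuron-like nuclei 35.6 to 40.4 CPM, and no neuronal Fkbp5 ratio passed 0.18.

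Nfkbia (chr12:55489410-55492647, minus strand) encodes the inhibitor that holds NF-kB in the cytoplasm. Endothelial-like nuclei were the highest, with 178 CPM in KO SNI, 159 in WT SNI, 189 in KO naive and 162 in WT naive, and those 4 intervals overlap. In oligodendrocyte-like nuclei it had 14.4 CPM in KO SNI, 30.5 in WT SNI, 19.8 in KO naive and 13.7 in WT naive, from 56, 117, 128 and 51 UMIs. WT SNI and KO naive were the higher libraries there, as for Sgk1. KO to WT was -1.08 (-1.57 to -0.61) after SNI, and SNI to naive was -0.46 (-0.94 to 0.00) in KO and 1.15 (0.67 to 1.66) in WT. In cluster 6 alone Nfkbia had 11.6 CPM in KO SNI, 30.1 in WT SNI, 6.49 in KO naive and 15.5 in WT naive, from 20, 46, 8 and 23 UMIs, where the KO naive library is the lowest. SNI to naive there was 0.84 (-0.41 to 2.23) in KO, on fewer than 50 UMIs, and 0.96 (0.21 to 1.75) in WT, so the opposite directions seen over the whole class were not seen within cluster 6. In cluster 2 it was -0.14 (-1.64 to 1.82) in KO, on 31 and 4 UMIs, and 1.30 (0.65 to 1.99) in WT. Astrocyte-like nuclei held 24.2 CPM in KO SNI, 39.6 in WT SNI, 41.9 in KO naive and 29.9 in WT naive. The astrocyte-like ratio of KO to WT after SNI was -0.71 (-1.34 to -0.10), and -0.50 in thinned nuclei, which ends the call. SNI to naive in KO was -0.79 (-1.41 to -0.18) there, -0.38 with coarser clustering and -0.13 with each library clustered on its own.

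In both neuron classes and in microglia-like nuclei WT SNI was again the highest library for Nfkbia. Excitatory neuron-like nuclei held 6.54 CPM in KO SNI, 9.43 in WT SNI, 7.47 in KO naive and 5.43 in WT naive. Inhibitory neuron-like nuclei held 5.54 CPM in KO SNI, 11.5 in WT SNI, 5.25 in KO naive and 4.72 in WT naive. SNI to naive in WT was 0.80 (0.25 to 1.37) in the excitatory and 1.29 (0.52 to 2.11) in the inhibitory class, and KO to WT after SNI was -1.06 (-1.77 to -0.37) in the inhibitory class. That last ratio was -0.43 in thinned nuclei. Microglia-like nuclei held 18.8 CPM in KO SNI and 40.4 in WT SNI, a log2 ratio of -1.11 (-1.96 to -0.24) on 26 and 24 UMIs.

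Tsc22d3 (chrX:140539528-140600659, minus strand) encodes a leucine zipper protein that mediates anti-inflammatory actions of glucocorticoids. Astrocyte-like nuclei were the highest, with 129.7 CPM in KO SNI, 170.6 in WT SNI, 161.9 in KO naive and 147.2 in WT naive, and oligodendrocyte-like nuclei held 98.0, 127, 93.1 and 108 CPM in the same order. No Tsc22d3 ratio in these 2 classes was called, and KO to WT after SNI was -0.40 and -0.38. The neuron classes were low, and there the WT naive library stood apart. Excitatory neuron-like nuclei held 18.0 CPM in KO SNI, 17.0 in WT SNI, 16.3 in KO naive and 9.96 in WT naive. Inhibitory neuron-like nuclei held 19.2 CPM in KO SNI, 17.8 in WT SNI, 17.7 in KO naive and 7.55 in WT naive. In inhibitory neuron-like nuclei KO to WT in naive mice was 1.23 (0.67 to 1.83) and SNI to naive in WT 1.24 (0.63 to 1.88). In the excitatory class these were 0.71 (0.34 to 1.09) and 0.77 (0.36 to 1.18), the first of them 0.53 with each library clustered on its own. Astrocyte markers, all 9 detected, summed to 160.0 CPM in KO naive excitatory neuron-like nuclei and 88.1 CPM in WT naive ones, and their part in these ratios was not tested.

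Mt1 (chr8:94179082-94180327, plus strand) and Mt2 (chr8:94172664-94173568, plus strand) are neighbouring genes for metallothioneins, small proteins that bind zinc and copper. They are close paralogs, so reads may be split between them, and Mt2 overlaps the antisense gene Gm45774. Astrocyte-like nuclei were the highest for both. Mt1 had 285 CPM there in KO SNI, 444 in WT SNI, 256 in KO naive and 285 in WT naive. Mt2 had 97.4 CPM in KO SNI, 145 in WT SNI, 95.2 in KO naive and 97.4 in WT naive. For both genes the WT SNI library was the only one above the others. Mt1 KO to WT after SNI was -0.64 (-0.82 to -0.46) and SNI to naive in WT 0.64 (0.43 to 0.86), and the same ratios of Mt2 were -0.57 (-0.88 to -0.27) and 0.57 (0.21 to 0.95), just under 1.5-fold. The WT injury ratio of Mt1 was 0.56 with coarser clustering, also just under it.

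In oligodendrocyte-like nuclei and both neuron classes the KO naive library was the low one for Mt1. Oligodendrocyte-like nuclei held 138 CPM in KO SNI, 157 in WT SNI, 88.2 in KO naive and 129 in WT naive. Excitatory neuron-like nuclei held 75.6 CPM in KO SNI, 73.0 in WT SNI, 41.9 in KO naive and 72.1 in WT naive, and inhibitory neuron-like nuclei 62.4 in KO SNI, 70.0 in WT SNI, 42.5 in KO naive and 65.3 in WT naive. In 6 of the 6 classes with at least 100 Mt1 UMIs the KO naive library was the lowest, where over all gene-class pairs it was the lowest in 33.04%. KO to WT in naive mice was -0.78 (-0.95 to -0.62) in the excitatory and -0.62 (-0.85 to -0.39) in the inhibitory class, the second of them -0.50 with each library clustered on its own. SNI to naive in KO was 0.85 (0.70 to 1.00) in the excitatory class and 0.65 (0.48 to 0.82) in oligodendrocyte-like nuclei, where it was 0.17 in nuclei with at least 1000 UMIs and 500 genes and in thinned nuclei. Mt2 in excitatory neuron-like nuclei had 19.7 CPM in KO SNI, 15.2 in WT SNI, 10.1 in KO naive and 12.02 in WT naive, and SNI to naive in KO was 0.97 (0.67 to 1.27). Gapdh, a housekeeping glycolytic gene, showed a like order over all kept nuclei, with 109 CPM in KO SNI, 142 in WT SNI, 70.5 in KO naive and 96.7 in WT naive, and its bearing on Mt1 was not tested.

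Pdk4 (chr6:5483351-5496309, minus strand) encodes a kinase that shuts down the pyruvate dehydrogenase complex. Among the named classes it was seen mostly in astrocyte-like nuclei, with 22 UMIs in KO SNI, 14 in WT SNI, 12 in KO naive and 13 in WT naive, and in oligodendrocyte-like nuclei, with 25, 39, 36 and 41 UMIs in the same order. Oligodendrocyte-like levels were 6.43 CPM in KO SNI, 10.2 in WT SNI, 5.58 in KO naive and 11.0 in WT naive, with both KO libraries below both WT libraries. The naive ratio of -0.98 (-1.67 to -0.30) turned to 0.18 in nuclei with at least 1000 UMIs and 500 genes and to 0.48 in thinned nuclei. After SNI it was -0.66 (-1.45 to 0.10), and -0.18 in thinned nuclei. Microglia-like nuclei held 0 UMIs of Pdk4 in 3 of the 4 libraries, and no neuron class passed 1 CPM.

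Cdkn1a (chr17:29090976-29100727, plus strand) encodes an inhibitor of cyclin-dependent kinases and is a p53 target. Endothelial-like nuclei were the highest, with 60.4 CPM in KO SNI, 44.6 in WT SNI, 66.1 in KO naive and 48.7 in WT naive, from 21, 18, 22 and 3 UMIs. Oligodendrocyte-like nuclei held 7.71 CPM in KO SNI, 9.12 in WT SNI, 4.80 in KO naive and 4.83 in WT naive. SNI to naive was 0.68 (-0.09 to 1.46) in KO and 0.92 (0.06 to 1.82) in WT, the injured libraries being higher in both genotypes. The KO ratio was 0.00 within cluster 6, and the WT ratio was 0.24 in nuclei with at least 1000 UMIs and 500 genes and 2.50 with each library clustered on its own. In astrocyte-like nuclei it had 5 UMIs in KO SNI, 19 in WT SNI, 15 in KO naive and 12 in WT naive, too few for a ratio under the rule used.

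Set side by side, the 2 main glial classes gave the following counts. In astrocyte-like nuclei after SNI, KO compared with WT, 0 of the 8 measured genes were higher and 3 lower (Sgk1, Nfkbia and Mt1), against 5.24% and 3.76% of all genes. Their median log2 ratio was -0.49, against 0.02 over all genes. In naive mice 1 of 7 was higher (Sgk1) and 0 lower, against 17.6% and 9.46% of all genes. The injury comparison gave 0 higher and 2 lower of 8 in KO (Sgk1 and Nfkbia), against 8.59% and 9.29%, and 2 higher (Sgk1 and Mt1) and 0 lower of 7 in WT, against 8.92% and 3.85%. In oligodendrocyte-like nuclei after SNI, KO compared with WT, 0 of 10 were higher and 5 lower (Sgk1, Fkbp5, Zbtb16, Nfkbia and Pdk4), against 3.58% and 3.52% of all genes. The median there was -0.52, against -0.00 over all genes. In naive mice 1 of 9 was higher (Sgk1) and 1 lower (Pdk4), against 17.4% and 9.59%. SNI compared with naive gave 2 higher (Cdkn1a and Mt1) and 1 lower (Sgk1) of 10 in KO, against 8.21% and 11.7%, and 4 higher (Sgk1, Zbtb16, Nfkbia and Cdkn1a) and 0 lower of 10 in WT, against 7.19% and 2.6%. Nr3c1 was called in neither class in any of the 4 comparisons.

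The remaining calls lay in other classes. In committed oligodendrocyte precursor-like nuclei Sgk1 had 126 CPM in KO SNI, 141 in WT SNI, 126 in KO naive and 81.2 in WT naive, from 36, 45, 44 and 22 UMIs. Its ratios of 0.63 (-0.14 to 1.44) for KO to WT in naive mice and 0.79 (0.03 to 1.60) for SNI to naive in WT were called, and with marked doublets kept they were 0.41 and 0.12. Tsc22d3 and Nr3c1 were called higher there for SNI to naive in KO, at 0.79 and 0.65, and turned to -0.48 with each library clustered on its own and to -0.10 with marked doublets kept. In oligodendrocyte precursor-like nuclei Mt1 had 93.0 CPM in KO SNI, 115 in WT SNI, 62.4 in KO naive and 99.2 in WT naive, with KO to WT in naive mice at -0.67 (-1.27 to -0.05). Fkbp5 was called in those precursors for SNI to naive in KO, at 0.66 (-0.04 to 1.36), and was 0.27 with coarser clustering. In microglia-like nuclei Mt1 had 81.5 CPM in KO SNI, 104 in WT SNI, 61.4 in KO naive and 66.3 in WT naive. SNI to naive in WT was 0.66 (-0.00 to 1.34) there, and 0.27 in nuclei with at least 1000 UMIs and 500 genes. In inhibitory neuron-like nuclei Mt2 had 14.1 CPM in KO SNI, 14.3 in WT SNI, 10.7 in KO naive and 7.55 in WT naive, with SNI to naive in WT at 0.93 (0.30 to 1.58).

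Of 38 other genes listed as glucocorticoid targets, 23 had enough UMIs in oligodendrocyte-like nuclei after SNI. KO compared with WT, 2 were higher and 2 lower, against 3.58% and 3.52% of all genes. Of the 23, 15 lay below 0, against 50.39% of all genes, and the median was -0.19. Klf15, a circadian and metabolic transcription factor, had 12.3 CPM in KO SNI and 22.1 in WT SNI, a log2 ratio of -0.84 (-1.38 to -0.32). Ddit4, an inhibitor of mTOR signalling, had 20.3 CPM in KO SNI and 36.2 in WT SNI, at -0.83 (-1.25 to -0.43). Dusp1, a MAP kinase phosphatase, and Zfp36l2, an RNA-destabilizing protein, went the other way, at 0.87 and 0.67. In WT, SNI compared with naive gave 8 higher and 0 lower of 24 in the same class, against 7.19% and 2.6% of all genes, with Ddit4 at 36.2 CPM in WT SNI and 17.7 in WT naive, and Cebpb, a transcription factor, at 13.3 and 4.29 CPM in those libraries. SNI compared with naive in KO gave 0 higher and 1 lower of 23 (Pim3, at -0.61), against 8.21% and 11.7%. In naive mice, KO compared with WT, 6 were higher and 3 lower of 23, against 17.4% and 9.59% of all genes.

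In astrocyte-like nuclei the same list gave 2 higher and 1 lower of 21 for KO to WT after SNI, against 5.24% and 3.76% of all genes. The lower one was Hif3a, with 34.8 CPM in KO SNI and 64.4 in WT SNI, at -0.89 (-1.40 to -0.39), a hypoxia-related transcription factor. In naive mice 3 of 19 were higher and 4 lower, against 17.6% and 9.46%. Gpd1, a glycerol phosphate dehydrogenase, had 24.1 CPM in KO naive and 76.4 in WT naive, at -1.66 (-2.30 to -1.05). Glul, the glutamine synthetase of astrocytes, had 307.5 CPM in KO naive and 164.9 in WT naive, at 0.90 (0.63 to 1.18). Within 1 list of targets, then, genes stood on both sides of 0 in the same nuclei. SNI compared with naive gave 2 higher and 3 lower of 23 in KO, against 8.59% and 9.29%, and 2 higher and 1 lower of 19 in WT, against 8.92% and 3.85%.

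Few of the receptor's partners were called in the 2 main glial classes. Of 18 genes for the receptors, the Hsp90 chaperones, hormone-converting enzymes and co-regulators, 16 had enough UMIs in oligodendrocyte-like nuclei, and their medians were 0.00 after SNI and 0.03 in naive mice for KO to WT, and 0.00 in KO and 0.07 in WT for SNI to naive. None was called for KO to WT after SNI there, against 3.58% higher and 3.52% lower of all genes. Nr3c2, the mineralocorticoid receptor, which also binds glucocorticoids, had 215.5 CPM in KO naive oligodendrocyte-like nuclei and 127.7 in WT naive, at 0.75 (0.60 to 0.91). Hsd11b1, which regenerates active hormone inside cells, had 26.7 CPM in KO SNI astrocyte-like nuclei and 14.9 in WT SNI, at 0.84 (0.06 to 1.67). In microglia-like nuclei of naive mice, 4 of 15 were lower in KO and 0 higher, against 19.9% and 18.6% of all genes: Ncoa3, Nr3c1, Nrip1 and Ep300, between -1.03 and -0.66.

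Genes tied to the other inputs of these targets were counted too. Of 12 NF-kB feedback genes, 4 had enough UMIs in oligodendrocyte-like nuclei in WT, SNI compared with naive. Of these, 0 were called, against 7.19% higher and 2.6% lower of all genes. The median of the 4 was -0.35, while Nfkbia was at 1.15. Of 8 metal-response genes, 6 had enough UMIs in astrocyte-like nuclei for KO to WT after SNI. Of these, 1 was higher and 0 lower, against 5.24% and 3.76% of all genes. The higher one was Slc30a10, a metal exporter, with 56.5 CPM in KO SNI and 30.4 in WT SNI, opposite in direction to Mt1. Mt3, the brain metallothionein on the same list, had 161 CPM in KO SNI astrocyte-like nuclei and 219 in WT SNI, at -0.44 (-0.68 to -0.20). Of 12 p53 targets, 8 had enough UMIs in oligodendrocyte-like nuclei after SNI. In KO compared with WT, 1 was higher and 1 lower, against 3.58% and 3.52% of all genes. The higher one was Gadd45a, a stress-induced gene, with 21.6 CPM in KO SNI and 8.86 in WT SNI, while Cdkn1a there was at -0.24. Of 12 genes listed as fuel genes or PPAR factors, 6 had enough UMIs in naive astrocyte-like nuclei. In KO naive compared with WT naive, 4 were lower and 0 higher, against 9.46% and 17.6% of all genes. The lower ones were Ppara, Pdk2, Ppard and Pdk1, between -1.06 and -0.59. Of 10 genes for RNA quality and dissociation, 8 had enough UMIs in oligodendrocyte-like nuclei for KO to WT after SNI. Of these, 1 was higher and 0 lower, against 3.58% and 3.52% of all genes. The higher one was Jun, an immediate early transcription factor, with 38.1 CPM in KO SNI and 19.0 in WT SNI. In WT, SNI compared with naive, 3 of 7 of the RNA quality genes were higher and 0 lower in oligodendrocyte-like nuclei. The shares over all genes were 7.19% and 2.6%. The median of this list was 0.50 there, 0.50 in the excitatory and 0.52 in the inhibitory neuron class.

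Genes with the pattern most like 9 of the members over 28 points (7 classes in 4 libraries, log2 of CPM + 1, 14586 genes) are given as a description, since the points share libraries and depth. For Sgk1 they were Cobl, Nav1 and Glrb, with Pearson r from 0.82 to 0.84. Zbtb16 was most like Coa3, Nudt11 and Samd4, at 0.80 to 0.81. Tsc22d3 was most like Trp53bp2, Ugp2 and Daam2, at 0.95 to 0.97, and Mt1 like Ptch1, Cldn10 and Sertad2, at 0.92 to 0.93. Fkbp5 had Mlxip, Taok3 and Dock2 as its nearest genes, and Nr3c1 had Nek7, Ikzf2 and Prex1. Mt2 had Gm6145, Aqp4 and Agt, Pdk4 had Gpd2, Ctnna3 and Klf15, and Cdkn1a had Ldhb, Cct2 and Dnajc3. No member was among the 3 nearest genes of these 9.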

How the data were processed

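Nuclei had been isolated over sucrose and captured with 10x Genomics chemistry, per the labels' protocols. The authors deposited raw UMI counts per gene and barcode, made with Cell Ranger 7.0.0 per the file headers. GRCm38, R 4.3.0 and Seurat 4.3.0 are named in the submitters' processing notes. Whether introns or strand were used in counting is not given in the sources used here.

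From these counts, barcodes were used where 300 genes or more were detected and the mitochondrial share was below 5%, which 112194 of 112746 met. Doublets were marked per library with Scrublet in scanpy 1.11.5, by the automatic threshold in both KO libraries and at the 90th percentile in both WT libraries, where the automatic one marked under 0.5%, and 7.1% were removed, leaving 104228. Pooled nuclei were clustered on 3000 variable genes, without the 10 genes, the related lists, mitochondrial genes or Malat1, with 40 components and 20 neighbours (pynndescent 0.6.0, igraph 0.11.9, Leiden resolution 1). A non-neuronal cluster was named where at least 66.7% of a type's markers, and at least 3, were 2-fold higher than elsewhere. Those markers also had to be seen in 2% of its nuclei. Neuron clusters did not need that share or fold. They were named excitatory or inhibitory by the higher mean log2 ratio of those marker lists, with a margin of at least 0.8. At least 3 markers of the named list had to be seen in 2% of nuclei. Raw counts were summed per class and library, and libraries ranged from 35197290 to 69572640 UMIs. Intervals came from scipy 1.17.1 in Python 3.11.15, and the scripts were tested on simulated data. Background shares count genes with at least 50 UMIs over the pair.

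The 10 genes, the related lists and the markers were chosen with earlier results of these data known. All 10 genes are reported, with at most 4 genes per related list, class and comparison, those with the largest ratios. Coordinates come from GENCODE for GRCm38, matched for 32235 of the 32285 genes. Alternatives were doublets kept, coarser clustering, separate clustering, deeper nuclei, thinned nuclei, size factors, other UMI minimums and other fold thresholds. The genes most like Nfkbia in pattern are not reported here.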

Additional observations from a re-analysis of the deposited data

Results flagged for a closer look

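For 5 gene-class pairs a ratio ran in opposite directions in 2 groups, with both intervals leaving out 0. The share of all gene-class pairs meeting this rule is not given here, so the count is not read as particular to these genes. For 4 of the 5 pairs it was the ratio of SNI to naive, in KO and in WT. The ratio of KO to WT met the rule too for Sgk1 in astrocyte-like and oligodendrocyte-like nuclei and for Zbtb16 in excitatory neuron-like nuclei. For Zbtb16 there it was -0.22 after SNI and 0.49 in naive mice. For Nfkbia in oligodendrocyte-like nuclei only the ratio of KO to WT met the rule, at -1.08 (-1.57 to -0.61) after SNI and 0.54 (0.06 to 1.03) in naive mice. The Nfkbia injury ratio in KO was -0.46 (-0.94 to 0.00). Each value below is the log2 ratio of SNI to naive in KO minus the same ratio in WT, with a 95% interval for counting error. With 1 library per group the difference itself was not tested, and the pairs share the same 4 libraries. For 2 of these libraries, WT SNI and KO naive, the treatment tags disagree with the titles. Injury and library cannot be told apart in these ratios.

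Sgk1 gave -2.15 (-2.93 to -1.38) in astrocyte-like nuclei and -1.85 (-2.11 to -1.58) in oligodendrocyte-like nuclei. Its KO injury ratio in astrocyte-like nuclei was -0.25 (-0.55 to 0.05) with coarser clustering, in place of -1.18. In oligodendrocyte-like nuclei it was -0.29 (-0.71 to 0.13) within cluster 6, in place of -0.66, and -0.82 (-1.31 to -0.29) within cluster 2. Nfkbia gave -1.62 (-2.27 to -0.96) and Zbtb16 -1.11 (-1.38 to -0.83) in oligodendrocyte-like nuclei. Of the 6253 KO naive nuclei of that class, 5210 were in cluster 3, which held few nuclei of the other libraries. Within cluster 6 SNI to naive for Nfkbia was 0.84 in KO, on 20 and 8 UMIs, and 0.96 in WT, on 46 and 23 UMIs, so the directions were not opposite there. Within cluster 2 it was -0.14 (-1.64 to 1.82) in KO, on 31 and 4 UMIs, and 1.30 (0.65 to 1.99) in WT. For Zbtb16 it was -0.37 (-0.81 to 0.07) in KO and 0.80 (0.45 to 1.16) in WT within cluster 6. Within cluster 2 the Zbtb16 ratio was 0.61 (-0.20 to 1.55) in KO, on 170 and 13 UMIs, and 0.90 (0.69 to 1.11) in WT. The directions for Zbtb16 were thus not opposite in cluster 2. Zbtb16 gave -0.71 (-0.98 to -0.43) in excitatory neuron-like nuclei, where neither ratio alone passed 1.5-fold.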

How the results depend on the processing

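Of 320 recomputed values of the 51 called ratios, 281 moved by less than their counting error, 35 moved by more and 4 changed sign. Those 4 were Pdk4 in oligodendrocyte-like nuclei, KO to WT in naive mice, at 0.18 in nuclei with at least 1000 UMIs and 500 genes and 0.48 in thinned nuclei, and, in committed oligodendrocyte precursor-like nuclei for SNI to naive in KO, Nr3c1 at -0.10 with doublets kept and Tsc22d3 at -0.48 with each library clustered on its own. The cause was not tested.

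Counts of called pairs that moved by over 1.5 times were these. Resolution 0.5 gave 1 lower for SNI to naive in KO. Clustering each library on its own gave 11 lower for KO to WT in naive mice and 1 lower for SNI to naive in WT. Nuclei with at least 1000 UMIs and 500 genes gave 4 higher for SNI to naive in KO and 1 lower in WT. Thinned nuclei gave 8 lower for KO to WT after SNI, 4 lower for KO to WT in naive mice, and 3 higher in KO and 9 higher in WT for SNI to naive. With no minimum of UMIs, more pairs entered, with 3 higher for KO to WT after SNI, 11 lower in naive mice, 13 higher and 6 lower for SNI to naive in KO, and 24 higher and 1 lower in WT. At least 100 UMIs gave 3 higher for SNI to naive in KO, and so did 1.5-fold with an interval that excludes 1. A threshold of 2-fold gave 7 lower for KO to WT after SNI, 3 higher and 0 lower in naive mice, 0 higher and 1 lower for SNI to naive in KO, and 4 higher in WT. The number of pairs measured and the share over all genes are not given for these settings. The shares above hold only for the main setting of 1.5-fold and at least 50 UMIs. These counts are thus not read against a background.

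No paired analysis was possible because each group has 1 library, and leaving out a library leaves 2 of the 4 comparisons without an arm. Depth limits Pdk4 and Cdkn1a most, with 66 to 118 and 67 to 172 UMIs per library over all kept nuclei.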

Other observations

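In nuclei that enter no class, the WT SNI library was again the highest for Sgk1, with 120 CPM in KO SNI, 137 in WT SNI, 115 in KO naive and 112 in WT naive. Zbtb16 had 71.6 CPM there in KO SNI, 81.2 in WT SNI, 68.4 in KO naive and 71.3 in WT naive. Mt1 had 62.6 CPM in KO SNI, 85.4 in WT SNI, 52.3 in KO naive and 46.2 in WT naive. These nuclei hold different clusters in different libraries, so no ratio is given.

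Ependymal-like nuclei, 81 in KO SNI, 144 in WT SNI, 130 in KO naive and 43 in WT naive, held 113 CPM of Mt1 in KO SNI, 172 in WT SNI, 70.7 in KO naive and 173 in WT naive, from 11, 39, 13 and 8 UMIs. Endothelial-like nuclei held 106 CPM of Zbtb16 in KO SNI, 169 in WT SNI, 81.1 in KO naive and 227 in WT naive, from 37, 68, 27 and 14 UMIs.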
